A study of Mus musculus with 12 samples.

Results

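The genes described here encode the subunits of the proteasome, its activators, its inhibitor and the chaperones that assemble it, measured in white adipose tissue of mice in the cold. They were chosen by symbol, as every gene that a probe set names alone and whose symbol is Psma, Psmb, Psmc, Psmd, Psme, Psmf or Psmg followed by a digit. A total of 49 genes of the 18193 that a probe set named alone met this rule, on 103 of 45101 probe sets. Psmc3ip, a factor of meiotic recombination, and Psme3ip1, a protein that binds the activator subunit Psme3, met it by name only and are left out of all counts. Of the 47 remaining genes, 45 were bright enough to test, each on its brightest probe set. The other two, Psma8, an alpha subunit of the testis, and Psmb11, a beta subunit of the thymus, reached log2 signals of at most 2.82 and 3.44 on any array. Psme2 was measured only by a probe set that also names Psme2b and is no member.

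The study compared male C57/BL6 mice aged 6 to 8 weeks that were moved to 4 °C with controls, after 1 week and after 5 weeks, with 3 arrays in each of the 4 groups. All groups carried no stated genetic change and had been housed at 22 °C. The cold groups were first adapted to 18 °C for 1 to 3 weeks, and the labels do not say whether controls were. The labels give the controls' temperature both as 30 °C and as room temperature, and they name neither the fat depot nor whether the 3 arrays of a group are 3 animals, and the p-values then speak only of how far these arrays scatter, possibly for technical reasons. Values are log2 signals of 1 probe set, and a change is a log2 fold change of cold over control with its standard error (SE). A gene is called changed where the adjusted p of the fit across all 12855 tested genes lay under 0.05 (limma, Benjamini-Hochberg). Calls of further probe sets of a gene come from a separate fit of the same kind over the 26510 single probe sets that were bright enough.

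The proteasome is the protease that cuts ubiquitin-tagged proteins into peptides. Its core is a barrel of alpha rings, which gate the entry, around beta rings, which hold the cutting sites, and a cap of ATPase and non-ATPase subunits binds the tagged protein, removes the ubiquitin and feeds the chain into the barrel. Cells of the immune system, and others under interferon, replace the cutting subunits Psmb5, Psmb6 and Psmb7 by Psmb8, Psmb9 and Psmb10, which gives the immunoproteasome and peptides suited to display on class I molecules. In brown fat, proteasome activity is known to be adjusted to the demands of heat production.

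Markers of fat were bright on every array. The adipocyte list, 6 genes with Adipoq and Lep among them, had a mean log2 signal of 13.41 to 13.89 on the 12 arrays, and the brown or beige list of 5 genes lay at 6.07 to 6.97 in controls and 11.54 to 12.45 in the cold. Some arrays stood apart from their groups. The log2 signal of the Gapdh control probe sets at the 3′ end minus that at the 5′ end, a sign of RNA quality, was 0.90, 3.00 and 3.12 on the 1-week control arrays and 3.01 on the third 5-week cold array, against -0.08 to 0.96 on the other 8. The same quantity for Actb was 1.84 to 2.80 in the 5-week cold group and 1.01 to 1.35 elsewhere. A list of 12 skeletal muscle genes had a mean log2 signal of 9.90 on the second 1-week cold array and 8.52 to 8.76 on the 5-week control arrays, against 4.83 to 5.83 on the other 8.

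After 1 week of cold, 4 of 7 constitutive beta ring genes and 7 of 11 non-ATPase cap genes rose, and all 3 immunoproteasome genes fell. Of the 45 members, 13 rose and 5 fell, beside 17.9% and 31.6% of all tested genes in these directions. The arrays of both groups did not overlap for 15 members higher and 6 lower, beside 26.0% and 33.7% of all genes. The members' median log2 fold change was 0.16, against -0.08 over all tested genes. After 5 weeks 6 members rose and 14 fell, beside 15.0% and 21.2% of all genes, and the median was -0.15 against -0.03. At that time 13 members lay above their controls without overlap and 19 below, beside 28.3% and 30.7%. How each array is scaled bears on this balance. Subtracting each array's own median over the tested genes (centring) moved the all-gene medians to 0.14 and 0.13, and then 26 members were called higher and 3 lower at 1 week, and 16 higher and 8 lower at 5 weeks. Over all genes, 36.2% of the calls at 1 week and 41.4% at 5 weeks were rises, and centring made these shares 63.9% and 66.6%, while quantile normalization made the second 53.1%. No member called in one direction was called in the other under these scalings. In bulk tissue, fewer cells of a type and less RNA per cell cannot be told apart.

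**Figure D1:**
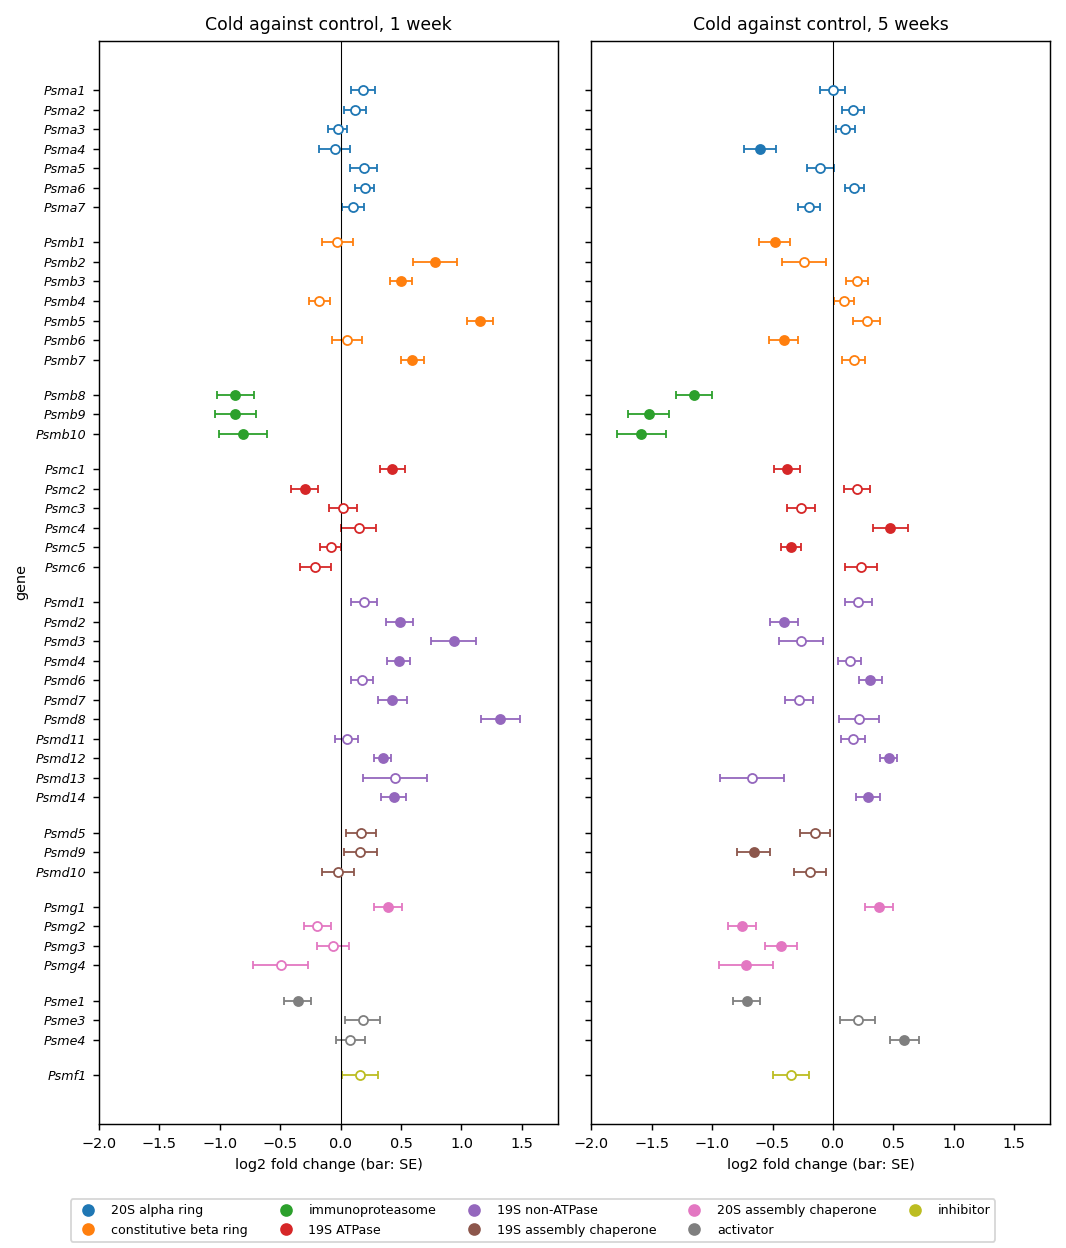
Log2 fold change of cold over control for each of the 45 tested members, at 1 week (left) and 5 weeks (right). The horizontal bar is the SE, a filled point is called at an adjusted p under 0.05, and colour gives the class of the gene. Psmb5 and Psmd8 lie farthest to the right at 1 week, at 1.15 and 1.32, and Psmb8, Psmb9 and Psmb10 lie left of 0 at both times. With centred arrays, 16 members would be called higher at 5 weeks instead of 6, and 8 lower instead of 14.

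In the core, the alpha and the beta rings differed in their calls at 1 week. Of the 7 constitutive beta genes 4 rose, namely Psmb5, Psmb2, Psmb7 and Psmb3, and none fell, with a median log2 fold change of 0.50. None of the 7 alpha genes was called on its brightest probe set, where log2 fold changes ran from -0.05 to 0.20. By an unadjusted p under 0.05 only Psma6 among them passed at 1 week. In the fit over single probe sets, 1 probe set of Psma6 and 1 of Psma7 were called higher at 1 week. The dimmer probe set of Psma3 was called lower there, with -0.51. Whether the rings differ was not tested.

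Psmb5 carries the chymotrypsin-like cutting site. Its log2 signal was 11.03, 10.74 and 10.78 on the 1-week control arrays and 11.86, 12.13 and 12.02 on the 1-week cold arrays. It was 10.97, 11.09 and 10.81 on the 5-week control arrays and 11.30, 11.21 and 11.19 on the 5-week cold arrays. All cold arrays lay above all control arrays of the same time, and the 1-week cold arrays stood above every other array. The log2 fold change was 1.15 (SE 0.11), or 2.2-fold, at 1 week with an adjusted p of 1.8e-05 in limma. At 5 weeks it was 0.28 (SE 0.11) with an adjusted p of 0.0676, which did not pass.

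The stretch upstream of the Psmb5 start is shown because this gene had the largest rise in the core. It holds 250 bases of the minus strand at chr14:54617996-54618245 of RefSeq GRCm38.p6 and ends at the base before the start. The capitals mark the match to TGACNNNGC, the core of the antioxidant response element, 39 to 47 bases before the start. The match says nothing of a factor bound there.
Psmb5 upstream: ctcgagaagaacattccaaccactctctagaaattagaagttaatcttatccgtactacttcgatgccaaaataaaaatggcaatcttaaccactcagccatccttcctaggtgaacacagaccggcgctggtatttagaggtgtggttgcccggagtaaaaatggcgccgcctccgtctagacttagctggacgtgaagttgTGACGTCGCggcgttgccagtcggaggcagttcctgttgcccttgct

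Psmb7 carries the trypsin-like site, and its log2 signal was 12.16, 11.92 and 12.21 in the 1-week controls and 12.69, 12.75 and 12.64 in the 1-week cold group. The 5-week signals were 12.14, 12.07 and 11.94 in controls and 12.28, 12.23 and 12.16 in the cold. The groups did not overlap at either time, and the gap at 1 week was the larger. The log2 fold change was 0.59 (SE 0.09, adjusted p 0.00045 in limma) at 1 week and 0.17 (SE 0.09, adjusted p 0.181) at 5 weeks.

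Psmb6 carries the caspase-like site and did not follow the other cutting subunits. The log2 signal was 10.97, 10.80 and 10.91 in the 1-week controls and 10.88, 11.16 and 10.79 in the 1-week cold group, where the groups overlapped. After 5 weeks the values were 10.86, 10.85 and 10.78 in controls and 10.58, 10.51 and 10.17 in the cold. Every 5-week cold array lay below every other array. The log2 fold change was 0.05 (SE 0.12) at 1 week, with no call, and Psmb6 fell by 0.41 on the log2 scale at 5 weeks (SE 0.12, adjusted p 0.0235 in limma).

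The beta subunits without a cutting site went several ways. Psmb2 rose by 0.78 (SE 0.18) on the log2 scale at 1 week, and its log2 fold change at 5 weeks was -0.24 (SE 0.18) with no call. Psmb3 rose by 0.50 (SE 0.09) at 1 week, and its second bright probe set had a log2 fold change of 0.82 there. At 5 weeks those probe sets had log2 fold changes of 0.20 and -0.42. Psmb1, also a structural subunit of the ring, had a log2 signal of 11.23, 11.35 and 11.30 in the 5-week controls and 11.03, 10.88 and 10.52 in the 5-week cold group. Its cold arrays all lay below the controls, and it fell by 0.48 at 5 weeks (SE 0.13, adjusted p 0.014 in limma), while its second, dimmer probe set had a log2 fold change of 0.29. Psmb4 was not called at either time on its brightest probe set, while its second had a log2 fold change of -0.48 at 5 weeks and was called lower.

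Psma4 was the alpha gene that fell at 5 weeks. Array by array, its log2 signal was 11.62, 11.63 and 11.30 in controls and 11.05, 11.05 and 10.63 in the cold, with no overlap. The log2 fold change was -0.60 (SE 0.13, adjusted p 0.00449 in limma), and at 1 week it was -0.05 (SE 0.13). The other 6 alpha genes were not called on their brightest probe sets, with log2 fold changes of -0.20 to 0.18 at 5 weeks. In the fit over single probe sets, 1 probe set of Psma6 was called higher and 1 of Psma3 lower at 5 weeks.

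In the cap, 7 of the 11 non-ATPase genes rose at 1 week and none fell, with all 11 log2 fold changes above 0 and a median of 0.44. The largest rise of any member was that of Psmd8, a lid subunit. Its log2 signal was 10.90, 10.31 and 10.60 in the 1-week controls and 11.80, 12.04 and 11.94 in the 1-week cold group. At 5 weeks it was 11.20, 11.10 and 11.08 in controls and 11.41, 11.59 and 11.03 in the cold. The 1-week cold arrays stood above all others, while the 5-week groups overlapped. The log2 fold change was 1.32 (SE 0.16), or 2.5-fold, at 1 week with an adjusted p of 8.6e-05 in limma, and 0.22 (SE 0.16, adjusted p 0.329) at 5 weeks.

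Psmd3, a structural subunit of the lid, had a log2 signal of 9.01, 8.26 and 8.39 in the 1-week controls and 9.54, 9.48 and 9.45 in the 1-week cold group. The 5-week signals were 9.05, 9.05 and 8.93 in controls and 8.77, 9.03 and 8.45 in the cold. Control arrays 2 and 3 held the lowest 1-week values and the cold arrays were close together. Psmd3 rose by 0.93 (SE 0.19, adjusted p 0.00167 in limma) at 1 week, and its log2 fold change at 5 weeks was -0.26 (SE 0.19) with no call.

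Psmd2, a large scaffold subunit that receives substrates and ubiquitin carriers, changed in opposite directions. The log2 signal was 10.62, 10.34 and 10.55 in the 1-week controls and 10.83, 11.03 and 11.11 in the cold. After 5 weeks the values were 10.53, 10.63 and 10.39 in controls and 10.20, 10.19 and 9.95 in the cold. The cold arrays lay above the controls at 1 week and below them at 5 weeks, with no overlap at either time. Psmd2 rose by 0.49 (SE 0.11, adjusted p 0.00459 in limma) and fell by 0.41 (SE 0.11, adjusted p 0.0173).

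Psmd7, a lid subunit that holds the deubiquitinase Psmd14 in place, had a log2 signal of 9.73, 9.53 and 9.36 in the 1-week controls and 9.78, 10.09 and 10.03 in the cold. At 5 weeks it was 9.48, 9.33 and 9.39 in controls and 9.12, 9.23 and 9.0 in the cold. The groups did not overlap at either time, and the direction turned. It rose by 0.43 (SE 0.12, adjusted p 0.0106 in limma) at 1 week, and the log2 fold change of -0.28 (SE 0.12, adjusted p 0.0822) at 5 weeks was not called.

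Psmd12 and Psmd14 were called higher at both times. With Psmg1 they make 3 such members of 45, beside 8.58% of all tested genes. Psmd12, a lid subunit, had a log2 signal of 11, 10.86 and 10.94 in the 1-week controls, 11.30, 11.24 and 11.31 in the 1-week cold group, 10.81, 10.90 and 10.86 in the 5-week controls and 11.34, 11.29 and 11.32 in the 5-week cold group. All 6 cold arrays lay above all 6 control arrays. It rose by 0.35 (SE 0.07, adjusted p 0.00211 in limma) at 1 week and by 0.46 (SE 0.07, adjusted p 0.000563) at 5 weeks. Psmd14, which cuts ubiquitin chains off the substrate, rose by 0.44 (SE 0.10) and by 0.29 (SE 0.10, adjusted p 0.0434). Its call at 5 weeks was lost in 11 of the 26 alternatives tried, and that of Psmd12 in 1. In the fit over single probe sets Psmd14 was not called at 5 weeks. Psmd4, a ubiquitin receptor, rose by 0.48 (SE 0.10) at 1 week, with 0.95 on its second bright probe set, and was not called at 5 weeks. Psmd6, another lid subunit, rose at 5 weeks by 0.31 (SE 0.09, adjusted p 0.0254).

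The 6 ATPase genes had no common direction, with a median log2 fold change of -0.03 at both times. Psmc1 had a log2 signal of 10.11, 9.81 and 10.07 in the 1-week controls and 10.30, 10.47 and 10.51 in the cold. The 5-week signals were 10.07, 10.07 and 10.10 in controls and 9.85, 9.67 and 9.58 in the cold. As with Psmd2, the cold arrays were above the controls at 1 week and below them at 5 weeks, with no overlap. Psmc1 rose by 0.43 (SE 0.10, adjusted p 0.00581 in limma) and fell by 0.38 (SE 0.10, adjusted p 0.0157).

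Among the other ATPases, Psmc5 fell by 0.35 (SE 0.08, adjusted p 0.00832 in limma) at 5 weeks. For 2 ATPases the probe sets differed. Psmc4 had a log2 signal of 11.41, 11.14 and 11.53 in the 5-week controls and 11.79, 11.62 and 12.09 in the cold, with no overlap. It rose by 0.47 at 5 weeks (SE 0.15, adjusted p 0.0258), while its second probe set had a log2 fold change of 0.08 there and 0.53 at 1 week. Psmc2 had a log2 signal of 12.81, 12.72 and 12.79 in the 1-week controls and 12.41, 12.50 and 12.51 in the cold, and it fell by 0.30 at 1 week (SE 0.11, adjusted p 0.0428). That probe set is of the kind that can bind several transcripts. The other bright probe set of Psmc2 had log2 fold changes of -0.01 at 1 week and -0.30 at 5 weeks, where the first had 0.20. In the fit over single probe sets neither was called at 1 week, and the other bright one was called lower at 5 weeks.

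The immunoproteasome genes fell at both times, all 3 of 3, at 1 week and at 5 weeks. Psmb8, the counterpart of Psmb5, had a log2 signal of 10.79, 10.98 and 11.15 in the 1-week controls and 9.90, 10.49 and 9.92 in the 1-week cold group. After 5 weeks the values were 11.02, 11.01 and 10.92 in controls and 9.85, 9.91 and 9.74 in the cold. All cold arrays lay below all control arrays, and the second 1-week cold array was the highest of the cold arrays. It fell by 0.87 (SE 0.15, adjusted p 0.000716 in limma) at 1 week and by 1.15 (SE 0.15, adjusted p 0.000183) at 5 weeks. Its second, dimmer probe set had log2 fold changes of -1.15 and -0.33.

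Psmb9, the counterpart of Psmb6, had a log2 signal of 10.03, 10.16 and 10.50 in the 1-week controls and 9.17, 9.67 and 9.24 in the cold. At 5 weeks it was 10.39, 10.42 and 10.22 in controls and 8.77, 9.09 and 8.59 in the cold. Again no cold array reached a control array. It fell by 0.87 (SE 0.17, adjusted p 0.0015 in limma) and by 1.52 (SE 0.17, adjusted p 6.5e-05).

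Psmb10, the counterpart of Psmb7, had a log2 signal of 9.84, 9.85 and 9.95 in the 1-week controls and 8.86, 9.51 and 8.85 in the cold. The 5-week signals were 10.03, 10.03 and 9.91 in controls and 8.66, 8.59 and 7.95 in the cold. The second 1-week cold array lay nearest to the controls and the third 5-week cold array farthest from them. Psmb10 fell by 0.81 (SE 0.20, adjusted p 0.00616 in limma) at 1 week. At 5 weeks its log2 fold change was -1.58 (SE 0.20, adjusted p 0.000154), a fall of 3.0-fold and the largest of any member. The falls of the 3 genes at 5 weeks exceeded 2-fold, and those at 1 week did not. The falls did not pass the test of a difference between the times, with adjusted p of 0.378, 0.0769 and 0.0746 for Psmb8, Psmb9 and Psmb10.

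**Figure D2:**
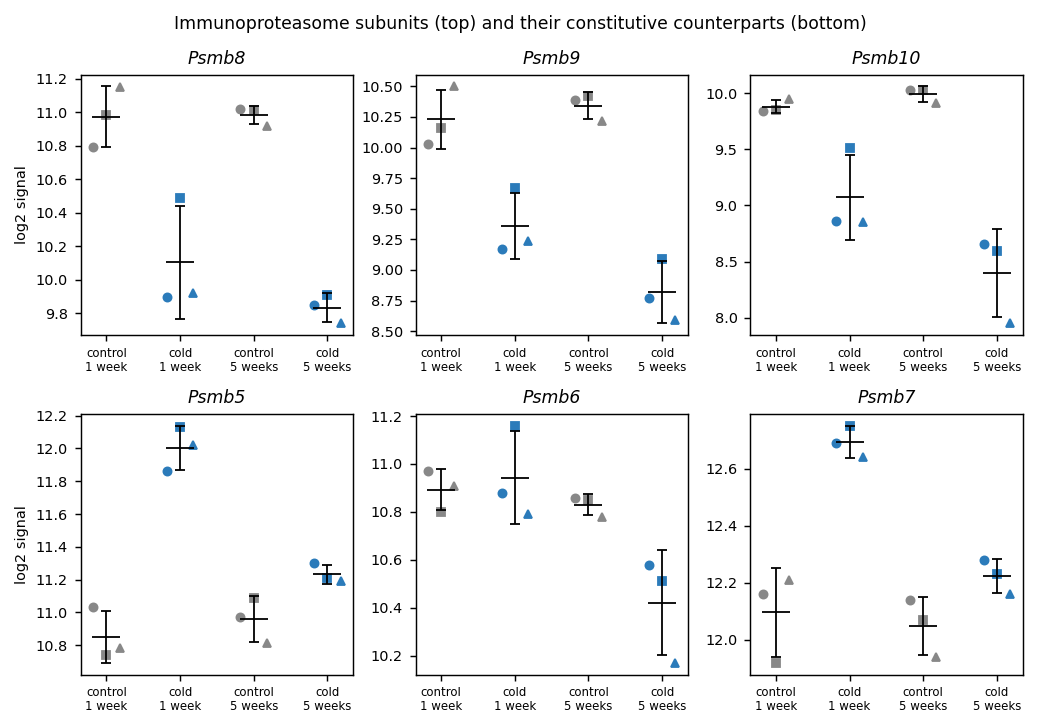
Log2 signal of Psmb8, Psmb9 and Psmb10 (top) and of Psmb5, Psmb6 and Psmb7 (bottom) on each of the 12 arrays, with circles, squares and triangles for replicates 1, 2 and 3. The black line is the group mean and the bar the SD of 3 arrays. In the top panels every cold array lies below every control array, and in the Psmb5 panel the 1-week cold arrays, at 11.86 to 12.13, lie above all others.

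Set against its counterpart on the same array, each immunoproteasome gene was lower in the cold. The log2 signal of Psmb8 minus that of Psmb5 was lower by 2.02 at 1 week and by 1.43 at 5 weeks, going from a mean of 0.12 ± 0.33 (SD, n = 3) to -1.90 ± 0.23 and from 0.03 ± 0.09 to -1.40 ± 0.08. For Psmb9 minus Psmb6 the cold minus control difference was -0.92 at 1 week and -1.12 at 5 weeks. For Psmb10 minus Psmb7 it was -1.40 and -1.76. Probe sets differ in brightness, so only the change between groups can be read. The arrays of the groups did not overlap in any of the 6 comparisons. Each gave a 2-sided exact permutation p of 0.1, which 3 arrays against 3 cannot go below, and 0.1 after Benjamini-Hochberg adjustment over the 6. These differences depend on the rises of the counterparts too, so at 1 week that of Psmb8 holds the rise of Psmb5.

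Psmb8 and Psmb9 lie on chromosome 17 in the class II region of the major histocompatibility complex, interleaved with the peptide transporter genes Tap1 and Tap2. By RefSeq GRCm38.p6, Psmb9 spans chr17:34182030-34187330, Tap1 chr17:34187556-34197225, Psmb8 chr17:34198195-34201454 and Tap2 chr17:34204479-34216321. Psmb10 lies apart, at chr8:105935728-105938392. Psmb9 and Tap1 start in opposite directions from the 225 bases between them, at chr17:34187331-34187555, shown on the minus strand as read toward Psmb9, with the reverse complement of the CCAAT box in capitals. The stretch before Psmb8 is on the plus strand, at chr17:34197945-34198194, with capitals for its match to TTCNNNGAA, the interferon gamma activated site, 89 to 97 bases before the start. Both are shown because these genes fell together.
Psmb9 to Tap1: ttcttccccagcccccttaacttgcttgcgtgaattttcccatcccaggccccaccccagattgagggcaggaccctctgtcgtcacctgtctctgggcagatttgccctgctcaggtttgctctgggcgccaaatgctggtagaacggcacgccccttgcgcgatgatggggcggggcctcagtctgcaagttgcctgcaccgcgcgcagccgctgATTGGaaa
Psmb8 upstream: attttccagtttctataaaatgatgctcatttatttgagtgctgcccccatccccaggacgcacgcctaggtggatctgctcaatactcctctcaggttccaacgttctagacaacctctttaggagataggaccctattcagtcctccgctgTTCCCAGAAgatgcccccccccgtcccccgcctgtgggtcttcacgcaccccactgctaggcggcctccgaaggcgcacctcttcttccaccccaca

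Most other genes of class I peptide display were called lower too. Of 15 tested genes of this list, which holds the peptide loading machinery, class I chains and their regulators, 11 fell and none rose at 1 week, and 11 fell and none rose at 5 weeks, with medians of -0.44 and -0.56, beside 31.6% and 21.2% of all genes that fell. At 1 week the falls with the smallest adjusted p were those of Nlrc5, the activator of class I transcription, by 1.41 (SE 0.20), Tap1 by 1.21 (SE 0.20) and Irf8, an interferon regulatory factor of myeloid cells, by 1.08 (SE 0.19). At 5 weeks Tap2 fell by 1.58 (SE 0.11), Pdia3, a thiol isomerase of the loading complex, fell by 1.37 (SE 0.17), and the class I chain H2-K1 fell by 0.61 (SE 0.09). B2m, the light chain of class I molecules, was not called at either time.

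Markers of immune cells moved with these genes. All 7 tested T lymphocyte markers and all 4 tested B lymphocyte markers fell at both times, beside 12.5% of all tested genes that did so. Of 7 macrophage markers 5 fell at both times, while Csf1r was called lower at 1 week alone and Itgam at 5 weeks alone. The mean log2 signal of the T list was 8.93 to 9.74 in controls and 8.13 to 8.56 in the cold, that of the B list 10.50 to 11.08 and 9.75 to 10.40, and that of the macrophage list 10.59 to 10.91 and 9.94 to 10.09. The second 1-week cold array, the highest for Psmb8, Psmb9 and Psmb10 in its group, was also the highest there for these 3 lists. For the macrophage list the margin was small, with 10.04, 10.08 and 9.94 on the 1-week cold arrays. The leukocyte list, at 11.64, 11.88 and 11.78, was also highest on the second array, while the granulocyte list, at 6.73, 6.24 and 6.14, was not. The part of immune cells in the falls of the immunoproteasome genes was not tested. After subtraction of group means, the 5 tested genes most like Psmb8 over the 12 arrays were Dut, Cd79b, H2-Eb2, Eif3h and Anp32b, with Pearson r of 0.964 to 0.991. That second 1-week cold array held 47.6% of the sum of squares of Psmb8 in this measure, so the likeness is given as a description.

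Of the activators, Psme1, which forms with Psme2 the interferon-induced activator ring, fell with the immunoproteasome genes. Array by array, its log2 signal was 11.96, 12.06 and 12.33 in the 1-week controls and 11.70, 11.95 and 11.64 in the cold. After 5 weeks the values were 12.23, 12.28 and 12.23 in controls and 11.61, 11.56 and 11.43 in the cold. At 1 week only 0.01 separated the nearest arrays of both groups, while at 5 weeks the gap was wide. It fell by 0.35 (SE 0.11, adjusted p 0.022 in limma) and by 0.71 (SE 0.11, adjusted p 0.000635). The probe set shared by Psme2b and Psme2 had log2 fold changes of -0.28 and -0.55, which were not tested.

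Psme4, an activator that works without ubiquitin, rose at 5 weeks on its brightest probe set. Its log2 signal was 10.45, 10.57 and 10.70 in controls and 11.13, 11.09 and 11.28 in the cold, with no overlap. The log2 fold change was 0.59 (SE 0.12, adjusted p 0.0027 in limma), after 0.08 (SE 0.12) at 1 week. Its next brightest probe sets had log2 fold changes of 0.45 and 0.23 at 5 weeks, and of 0.22 and 0.62 at 1 week, so the time of the rise differed between them. In the fit over single probe sets, 1 probe set of Psme4 was called higher at 1 week and 2 at 5 weeks. Psme3, a nuclear activator, was not called on its brightest probe set, with 0.18 and 0.20, while its second probe set had 1.04 at 1 week and 0.42 at 5 weeks. The inhibitor Psmf1 was not called on its brightest probe set, with 0.16 (SE 0.15) and -0.34 (SE 0.15). Its second probe set, nearly as bright, had -0.50 at 1 week, where it was called lower, and -0.45 at 5 weeks.

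The chaperones that build the core split at 5 weeks, where all 4 were called, 1 higher and 3 lower. Psmg1 had a log2 signal of 8.58, 8.58 and 8.55 in the 1-week controls and 8.88, 9.19 and 8.81 in the cold, and of 8.39, 8.55 and 8.49 in the 5-week controls and 8.71, 8.84 and 9.02 in the cold. All its cold arrays lay above all its control arrays, and it rose by 0.39 (SE 0.11, adjusted p 0.014 in limma) and by 0.38 (SE 0.11, adjusted p 0.0219). Psmg2, its partner in alpha ring assembly, had a log2 signal of 9.24, 9.40 and 9.34 in the 5-week controls and 8.58, 8.64 and 8.51 in the cold. It fell by 0.75 (SE 0.12, adjusted p 0.000529) at 5 weeks, and was not called at 1 week, with -0.19 (SE 0.12). Its second probe set, about as bright, had -0.24 at 5 weeks and -0.51 at 1 week, where it was called lower. Psmg4 and Psmg3, which form the other chaperone pair, fell by 0.72 (SE 0.22) and 0.43 (SE 0.13) at 5 weeks.

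Of the 3 chaperones of the cap, Psmd9 was the only one called. The log2 signal was 7.64, 7.80 and 7.28 in the 5-week controls and 6.99, 6.78 and 6.98 in the cold, with no overlap, and it fell by 0.65 (SE 0.14, adjusted p 0.00355 in limma). At 1 week its log2 fold change was 0.16 (SE 0.14). Psmd5 and Psmd10 had log2 fold changes of -0.19 to 0.17 over both times.

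The cold effects at 5 weeks and 1 week were compared directly. Of the 45 members, 10 had a lower and 1 a higher effect at 5 weeks, beside 8.38% and 11.5% of all tested genes. The 10 were Psmd3, Psmd8, Psmb2, Psmd2, Psmb5, Psmd9, Psmc1, Psmd7, Psmg2 and Psmb7, with differences of -1.20 to -0.42 on the log2 scale, and the other was Psmc2 with 0.50. For Psmc2 and Psmg2 the second bright probe set had the opposite sign, with a difference of -0.29 against 0.50 and of 0.27 against -0.56. They hold 3 of the 7 constitutive beta genes and 4 of the 11 non-ATPase genes. The members' median difference was -0.30, against 0.06 over all genes. Of these 10 genes 6 had risen at 1 week and were not called at 5 weeks, and Psmc1 and Psmd2 rose at 1 week and fell at 5 weeks, a pattern that 0.871% of all tested genes had.

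**Figure D3:**
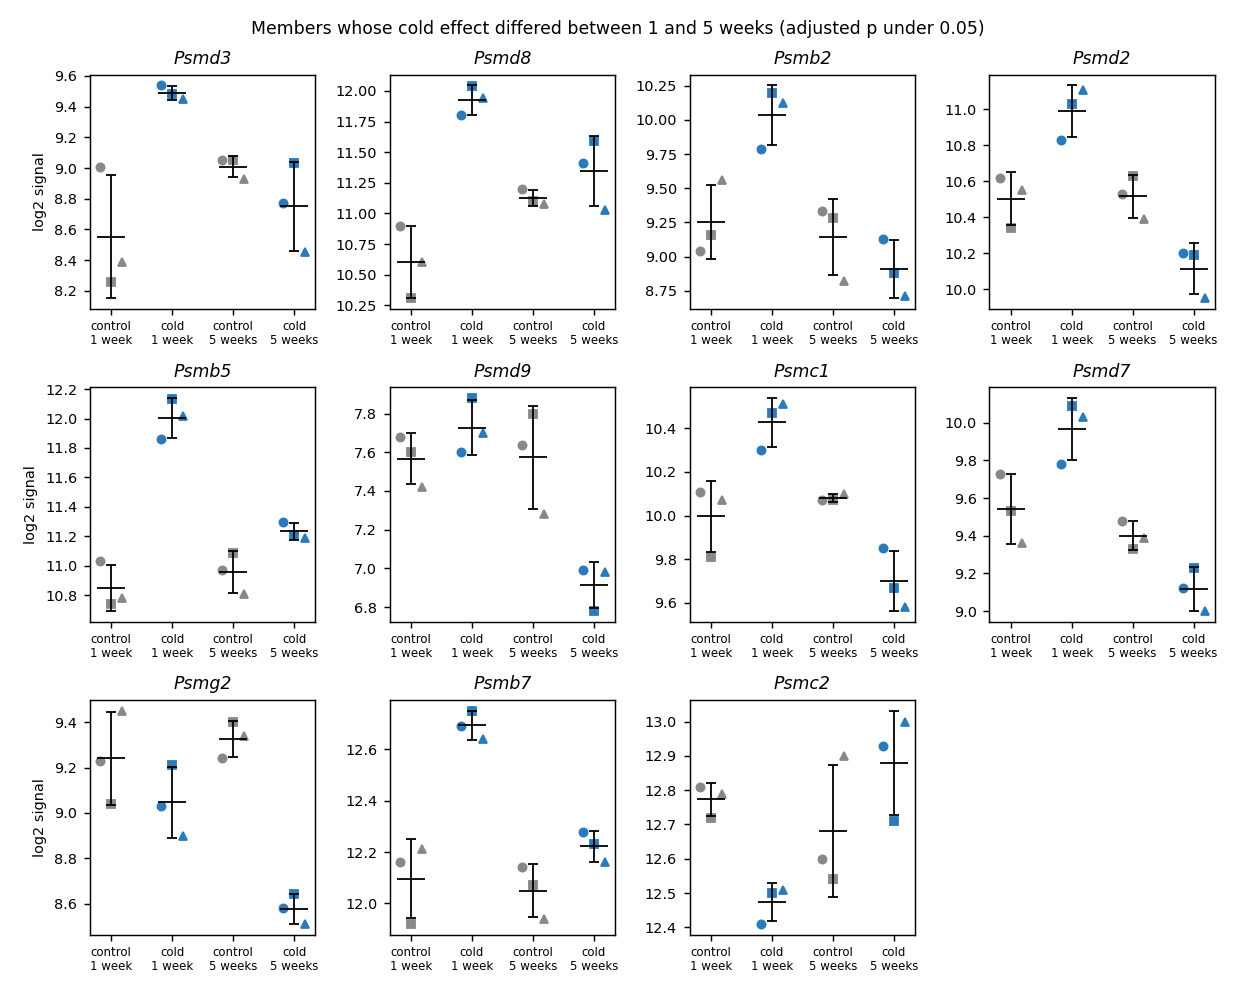
Log2 signal on each of the 12 arrays for the 11 members whose cold effect differed between 1 and 5 weeks, with circles, squares and triangles for replicates 1, 2 and 3, the group mean as a line and the SD of 3 arrays as a bar. In the Psmb5 and Psmd8 panels the 1-week cold arrays stand above the other 9, and in the Psmc1 and Psmd2 panels the cold arrays lie above the controls at 1 week and below them at 5 weeks. In the Psmc2 panel the 1-week cold arrays lie below the 1-week controls.

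Within the cold groups, 22 members were lower and 2 were higher at 5 weeks than at 1 week, beside 1548 lower and 1986 higher of the 12855 tested genes, or 27.5% in either direction. The constitutive beta ring was called throughout, with 6 genes lower, Psmb2 by 1.13 (SE 0.18) and Psmb5 by 0.77 (SE 0.11) on the log2 scale first among them, and Psmb4 higher by 0.26 (SE 0.08). The second bright probe set of Psmb4 went the other way. Its log2 signal was 11.79, 11.94 and 11.74 in the 1-week cold group and 11.35, 11.36 and 11.09 in the 5-week cold group. Between the control groups no member was called by limma, where 2.55% of all genes were, and 4 members passed an unadjusted p under 0.05. With array weights, 3 members were called higher and 1 lower. The shares of all genes in that fit and at that unadjusted p are not given here, so these counts show nothing particular to the members. The largest log2 differences between controls were 0.52 (SE 0.16) for Psmd8, higher at 5 weeks, and -0.49 (SE 0.15) for Psmc4. The 1-week and 5-week comparisons use different control arrays, while the differences within cold and within controls share arrays with them.

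The RNA quality sign and the muscle genes moved with the groups behind these calls. With the Gapdh value as a covariate, 7 of the 13 rises at 1 week were called, those of Psmb2, Psmb3, Psmb5, Psmb7, Psmd8, Psmd12 and Psmg1, and without the 1-week control arrays 2 and 3 it was 5, those of Psmb2, Psmb3, Psmb5, Psmb7 and Psmd8. These 5 genes were called higher at 1 week in all 26 alternatives tried. At 1 week the immunoproteasome genes were called with each covariate, and without those 2 control arrays only Psmb8 was. That fit has 1 array in the 1-week control group, assumed to vary like the others, and the log2 fold changes of all 3 genes stayed negative.

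At 5 weeks the muscle list separated the groups fully, and with it as a covariate 2 members rose and 4 fell, namely Psmb8, Psmb9, Psmb10 and Psmg2. Within groups the list varied mostly through the second 1-week cold array, at 9.90 against 5.18 and 5.33 on the other arrays of its group. The slope of this covariate rests largely on that array, so the fit cannot show which calls at 5 weeks are free of muscle. The Actb value separated the 5-week groups too, and with it no member was called at 5 weeks by limma, so this value and the cold cannot be told apart there. The 5-week control arrays had the smallest spread, with a median SD over the tested genes of 0.093 against 0.132 to 0.156 in the other groups. With their mean taken as 1 array, 1 member rose and 6 fell. Without the first 5-week control array or without the third 5-week cold array 2 members rose instead of 6, and without the second 5-week control array 9 fell instead of 14.

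No difference between the cold effects was called with the Gapdh, Actb or muscle values as covariates, without the 1-week control arrays 2 and 3, or with the 5-week control arrays averaged. This holds for the members, and the share of all tested genes called in the same fits is not given beside it. A loss of calls among the members can then not be told from a loss over all genes. Whether RNA quality has a part in the differences was not tested beyond these fits.

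**Figure D4:**
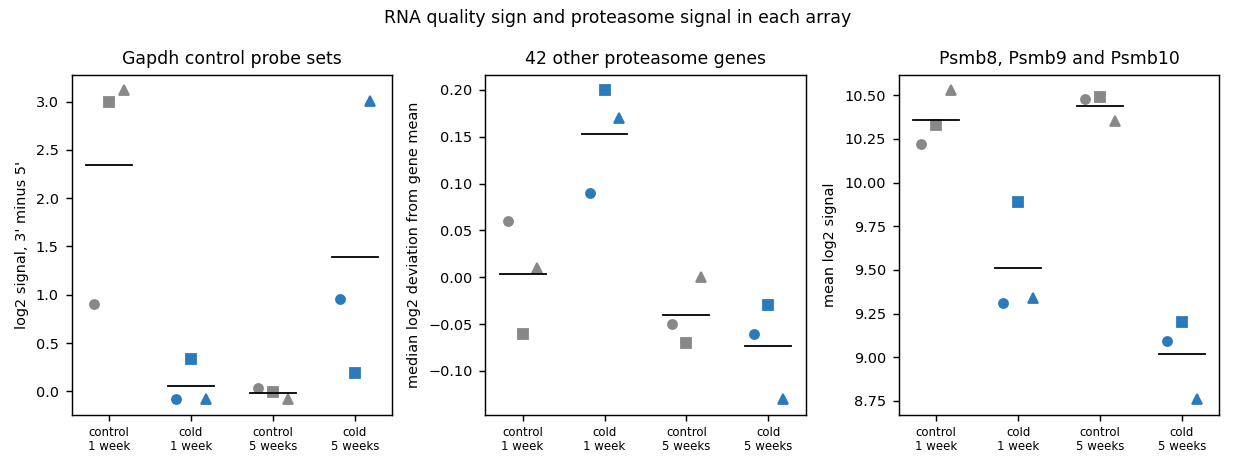
Values on each array: the Gapdh log2 signal at the 3′ end minus that at the 5′ end (left), the median log2 deviation from the gene mean over the 42 proteasome genes other than the immunoproteasome (middle), and the mean log2 signal of Psmb8, Psmb9 and Psmb10 (right). Lines are group means, and circles, squares and triangles are replicates 1, 2 and 3. The middle panel is highest for the 1-week cold arrays, at 0.09 to 0.20, and the right panel is 10.22 to 10.53 in controls and 8.76 to 9.89 in the cold.

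Genes of proteins that work with the proteasome moved both ways. Of 16 tested partner genes 2 rose and 2 fell at 1 week, beside 17.9% and 31.6% of all genes, and 1 rose and 3 fell at 5 weeks, beside 15.0% and 21.2%, with a median of -0.10 at each time. Nploc4 and Ufd1, adaptors of the unfolding enzyme Vcp, rose by 0.75 (SE 0.11) and 0.48 (SE 0.10), and the shuttle Ubqln2 and the regulator Nfe2l2 fell by 0.63 (SE 0.08) and 0.47 (SE 0.11). At 5 weeks Nploc4 rose by 0.35 (SE 0.11), while Vcp fell by 0.50 (SE 0.09), the core maturation factor Pomp by 0.49 (SE 0.11) and the lid subunit Sem1 by 0.33 (SE 0.09). Nfe2l1, the transcription factor known to drive proteasome genes in brown fat in the cold, was not called, with 0.42 (SE 0.21, adjusted p 0.113 in limma) at 1 week and -0.13 (SE 0.21) at 5 weeks.

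Of 11 tested genes of ubiquitin activation and transfer, 1 rose and 3 fell at 1 week, and 3 rose and 2 fell at 5 weeks, beside the same shares of all genes. At 1 week the conjugating enzyme Cdc34 rose by 0.86 (SE 0.14), and the activating enzyme Uba6 fell by 1.10 (SE 0.20), the ligase Ube3a by 1.06 (SE 0.13) and the conjugating enzyme Ube2d2a by 0.46 (SE 0.10). At 5 weeks Ube2d1 fell by 1.10 (SE 0.19) and Ube2d3 by 0.50 (SE 0.10), while Ube2k rose by 0.46 (SE 0.08), the ubiquitin chain factor Ube4b by 0.64 (SE 0.16) and Cdc34 by 0.41 (SE 0.14).

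Promoter sequences of 38 of the 45 tested members were searched whole, on both strands, for 5 motifs, beside those of 27025 genes. The cut to the 250 bases before the start was made only for the Psmb5 and Psmb8 stretches shown above. CCGGAAG, the core of sites for ETS factors, was in 14 members, or 36.8%, against 9.93% of all genes. CCAAT was in 34.2% against 41.1%, and TGACNNNGC in 15.8% against 14.0%. The core of the interferon-stimulated response element (GAAA, any 2 bases, GAAA) was in 5 members, or 13.2% against 3.99%, namely Psmb3, Psmd4, Psmd9, Psme1 and Psmg4. TTCNNNGAA was in 3, or 7.89% against 9.55%, namely Psmb8, Psmd2 and Psmg1. A match gives letters only, and the holders of a motif changed in different directions.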

How the data were processed

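The deposited table holds the authors' log2 signals, 1 for each probe set on each array, and the submitters' processing notes name GCRMA, which corrects background, normalizes arrays to each other and summarises probes. Its version is not given here. Symbols came from the array annotation, updated through gene identifiers. Probe sets naming 1 gene were kept where 3 or more arrays exceeded log2 4, and the brightest per gene was kept, which left 12855 genes, so a dimmer transcript of a gene is not seen. Group means over all 12 arrays were fitted with limma 3.58.1 in R 4.3.3 (lmFit, eBayes, 2-sided, Benjamini-Hochberg over all genes at 0.05). The fit was tested on simulated data, with 100 genes changed by 0.5 and 100 by 1 on the log2 scale in the 1-week cold group. It recovered 40 of the first and 93 of the second, and 7.6% of its calls were false. The simulation held far fewer changed genes than were called in the data. Alternatives changed the filter, probe set choice, scaling, covariates, weights, block and arrays.

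Members and gene lists were chosen with earlier results of these data known. Array values are given for Psmb5 to Psmb10, for the called member with the largest rise and fall of each other class at each time, and for the 6 members with the smallest adjusted p in the difference of the cold effects. From each list of other genes up to 3 rises and 3 falls by adjusted p are named, and Nfe2l1 and B2m were named after their values were seen. Replicate numbers did not pair the arrays: over 12 pairs of the same number, deviations from the group means correlated at -0.027 to 0.074. RefSeq GRCm38.p6 sequences and positions were used by symbol. The number of arrays limits the precision.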

Additional observations from a re-analysis of the deposited data

Results flagged for a closer look

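For 11 members the effect of cold differed between 1 and 5 weeks by the test of the difference itself in limma. Given as the log2 cold effect at 5 weeks minus that at 1 week, the values were -1.20 for Psmd3 (adjusted p 0.0128), -1.11 for Psmd8 (0.0113) and -1.02 for Psmb2 (0.0211). Psmd2 had -0.89 (0.00688), Psmb5 -0.87 (0.00663), Psmd9 -0.82 (0.0169) and Psmc1 -0.81 (0.00731). Psmd7 had -0.71 (0.016), Psmg2 -0.56 (0.0355), Psmb7 -0.42 (0.0481) and Psmc2 0.50 (0.0455). None of these passed with the Gapdh, Actb or muscle values as covariates, though each kept its sign in all 26 alternatives, with -0.96 to -0.67 for Psmb5, -1.43 to -0.31 for Psmd3 and 0.10 to 0.61 for Psmc2.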

How the results depend on the processing

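The following counts are of the 45 members called, higher and then lower. The calls over all tested genes are given above for centring alone, and for no other alternative. The counts then do not show a change particular to the members. At 1 week (13 and 5) they were 26 and 3 with arrays centred, 7 and 3 with the Gapdh covariate, 5 and 1 without 1-week control arrays 2 and 3, and 6 and 0 without also the third 5-week cold array; the last 2 left 1 and 0 immunoproteasome genes called. At 5 weeks (6 and 14) they were 16 and 8 centred, 3 and 9 with Gapdh, 0 and 0 with Actb (immunoproteasome 0), 2 and 4 with the muscle list, and 1 and 6 with 5-week controls averaged; array weights gave 10 higher. For the difference of the cold effects (1 and 10), both counts were 0 with Gapdh, Actb or muscle covariates, with either set of arrays left out and with 5-week controls averaged. Its count of higher effects was 0 with no filter, with probe sets averaged or with centring, and 2 with the filter at log2 6, array weights, or the trended robust fit. Within cold (2 and 22) they were 0 and 10 with Gapdh and 0 and 0 with Actb. The count lower was 13 with muscle. The count higher was 1 with probe sets averaged, centring or array weights, 4 with quantile normalization and 0 without 1-week control arrays 2 and 3 and the third 5-week cold array, and only the 2 cold groups gave 1 and 12. Array weights gave 3 and 1 within controls (0 and 0).

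The replicate number as a block gave 2 higher differences instead of 1 and moved no other of these counts by over 1.5 times; the numbers do not pair the arrays.

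Leaving out each array in turn gave 13 to 15 and 3 to 5 at 1 week, 2 to 7 and 9 to 15 at 5 weeks, 3 to 3 immunoproteasome genes at either time, 0 to 1 and 7 to 13 for the difference, 0 to 2 and 15 to 23 within cold, and 0 to 2 and 0 to 0 within controls.

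At 5 weeks 3 members changed sign against a fit that called them: Psmb4 with probe sets averaged (-0.19, from 0.09 with no call), and Psmc4 (-0.03) and Psmd2 (0.01) with the Actb covariate. Members called by neither fit compared changed sign too, such as Psmd13 at 5 weeks, from -0.67 to 0.41 with the Actb covariate. The cause was not tested. Leaving out the set of 3 arrays and averaging the 5-week controls were chosen after seeing the data. In the fit over single probe sets, those of 1 gene were called in opposite directions for Psmd13 at 5 weeks, among 22 genes with several. They had opposite signs in 7 of the 22 at 1 week, 12 at 5 weeks and 14 for the difference of the cold effects. Signals near background bound what Psma8 and Psmb11 can show.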
